A study of Mus musculus with 6 samples.

Results

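The Notch1, Notch2 and Notch3 receptors, the nuclear factors Rbpj and Maml2 and the target genes Hes1, Dtx1 and Nrarp were followed in T cell progenitors with and without the timing enhancer of Bcl11b. These 8 genes were picked by symbol, for their place in the pathway, from 28048 genes listed in the count tables. All 8 had a UMI in at least 15 cells, as did 13599 genes in all. A UMI is a molecular tag that counts 1 captured RNA molecule.

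Single-cell RNA sequencing by combinatorial indexing (sci-RNA-seq3) was run on 6 cultures, 1 library for each combination of genotype and starting population. Progenitors were grown from mouse bone marrow on OP9-DL1 stroma, sorted as double-negative (DN) DN1, DN2a or DN2b cells and put back on that stroma for 4 days. The molecule is labelled as nuclear RNA. Both genotypes carried the yellow fluorescent Bcl11b reporter on each copy of the gene; wild type (WT) kept the distal timing enhancer, and ΔTE lacked it on each copy. The bone marrow was pooled from 6 to 8 mice per genotype, 2 to 4 months old and of both sexes. DN2a cells were gated as reporter negative and DN2b cells as reporter positive, so the sort itself set Bcl11b apart between these starts. With 1 library per condition, the comparisons within a start had no biological replicate and no test was run on them. The starts were used as 3 pairs of libraries in 1 test of genotype, given after those comparisons. The 3 reverse transcription wells of a library were technical parts of 1 culture, and the intervals given here are 95% limits of counting error only.

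Notch receptors are cut when they bind a Delta or Jagged ligand on a neighbouring cell, and the freed intracellular part enters the nucleus. There it binds the DNA-binding protein RBPJ and a Mastermind-like coactivator and switches on target genes. This signal drives early thymic progenitors towards the T lineage, and OP9-DL1 cells are a bone marrow stromal line made to display the ligand DLL1. Every culture received that ligand, so a culture without Notch ligand was not part of the comparison.

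On the GRCm38 build with the GENCODE M21 annotation, Notch1 lies on chr2:26457903-26516663 on the minus strand, Notch2 on chr3:98013527-98150361 on the plus strand and Notch3 on chr17:32120820-32166852 on the minus strand. Rbpj spans chr5:53466152-53657362 and Maml2 spans chr9:13297957-13709388, both on the plus strand. Exons made up 1.6% of the Maml2 span, and Gm17571, on the opposite strand, and Gm22643, on the same strand, overlap it. Reads of Gm22643 could be shared with Maml2 in any case, and those of Gm17571 if strand was not used in the counting. Hes1 is at chr16:30064384-30067796 and Nrarp at chr2:25180758-25183339 on the plus strand, and Dtx1 is at chr5:120680202-120711927 on the minus strand. The labels name mm9 as the build and the count tables hold no coordinates, so these positions come from the annotation alone.

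The promoters of Dtx1, Nrarp and Rbpj are shown because the first 2 are target genes whose levels are set against each other here, and Rbpj encodes the factor that would read the motif. Each line holds the 250 bases before a RefSeq transcription start on GRCm38.p6, written 5′ to 3′ on the strand of the gene. The capitals mark TGGGAA, the core of the motif bound by RBPJ, or TTCCCA, the same letters on the other strand. The Dtx1 stretch is chr5:120711670-120711919 on the minus strand, the Nrarp stretch is chr2:25180508-25180757 on the plus strand, and the Rbpj stretch is chr5:53590096-53590345 on the plus strand.
Dtx1: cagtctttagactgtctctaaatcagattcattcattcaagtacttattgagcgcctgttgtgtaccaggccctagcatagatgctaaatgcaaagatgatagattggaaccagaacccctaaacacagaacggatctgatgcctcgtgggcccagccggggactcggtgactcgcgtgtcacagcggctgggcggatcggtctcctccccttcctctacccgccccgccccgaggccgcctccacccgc
Nrarp: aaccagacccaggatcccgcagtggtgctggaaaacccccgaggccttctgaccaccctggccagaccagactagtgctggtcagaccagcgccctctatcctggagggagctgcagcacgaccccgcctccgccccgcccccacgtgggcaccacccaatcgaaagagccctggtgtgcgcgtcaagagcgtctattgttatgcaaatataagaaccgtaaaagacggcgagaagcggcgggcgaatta
Rbpj: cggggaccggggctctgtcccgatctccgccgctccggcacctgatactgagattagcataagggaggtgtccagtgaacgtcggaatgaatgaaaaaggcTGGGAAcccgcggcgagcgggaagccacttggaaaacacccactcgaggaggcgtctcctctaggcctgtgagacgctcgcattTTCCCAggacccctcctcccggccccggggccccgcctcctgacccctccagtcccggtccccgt
The Rbpj stretch held 2 matches, 149 and 65 bases before the start, and the other stretches shown held none. Promoter windows, which also take in 50 bases after the start, were given for 7 of the 8 genes, in 9 windows. A match was present in 3 of these 9 windows, belonging to 2 genes, Rbpj and Maml2. The Rbpj windows overlap, and the match 65 bases before the start shown is the same site as the one 205 bases before the other start. Of all 32851 promoter windows, 25.6% held the motif. The longer GTGGGAA, searched on both strands and holding the shorter motif within it, was in 6.38% of all windows and in 0 of the 9. These matches describe letters in a short window and say nothing of binding elsewhere.

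After removal of barcodes with under 200 genes, over 2000 UMIs or over 30% mitochondrial UMIs, 60671 cells were kept, 3401 to 19489 per library. Summed UMIs per library ranged from 1717136 in ΔTE DN2b to 9048728 in WT DN2a, with 386 to 485 UMIs in the median cell. No barcode (0) was found in more than 1 library. The WT DN2a library stood apart: its median mitochondrial share was 13.3%, against 20.9% to 23.9% elsewhere, and the mitochondrial limit removed 2.59% of its barcodes, against 26.8% to 56.6%. The ratio of the median gene in ΔTE against WT was -0.14 on the log2 scale for the DN2a start, 0.00 for the DN1 start and -0.02 for the DN2b start. The DN2a ratios of Notch1 and Dtx1 are therefore also given against this shift. All other DN2a ratios of ΔTE to WT include it. Bcl11b, whose enhancer was deleted, was lower in ΔTE in each start, with log2 ratios of -1.39 (DN1), -1.06 (DN2a) and -0.67 (DN2b).

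Levels are given as CPM, the share of a library's UMIs that a gene took, scaled to 1000000 UMIs. The 8 genes were captured sparsely. Notch1 had a UMI in 10.7% of kept cells and Notch3 in 1.21%, and between 83.8% (Notch1) and 96.7% (Nrarp) of the cells with a UMI had exactly 1. The sums over a library therefore carry the comparisons, and a fall in the number of cells of a type cannot be told apart from a fall in RNA per cell in such sums.

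Notch1, the receptor required for T lineage entry, was at 199 CPM in WT DN1, 295 in WT DN2a and 317 in WT DN2b. In ΔTE it was at 170, 243 and 279 CPM in the same order. Both DN1 libraries thus lay below all 4 DN2 libraries, and within each start the ΔTE library was the lower one. ΔTE over WT gave a log2 value of -0.23 (-0.35 to -0.10) in DN1, -0.28 (-0.37 to -0.19) in DN2a and -0.19 (-0.35 to -0.02) in DN2b. All 3 intervals lay below 0, yet the size was 1.14 to 1.22-fold, under the 1.5-fold limit set for calling a gene. The ΔTE wells (166 to 177 CPM) lay below the WT wells (191 to 209 CPM) in DN1, and likewise in DN2a, while the DN2b wells overlapped. Relative to the median gene the DN2a ratio was -0.14.

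Notch2, a receptor with broad use in blood cells, ran the other way across starts. Its level was 84.8, 71.9 and 72.5 CPM in WT DN1, DN2a and DN2b, and 82.6, 63 and 50.1 CPM in ΔTE. The ΔTE DN2b library held the lowest value, from 86 UMIs. The ΔTE to WT log2 ratio was -0.04 (-0.22 to 0.14) in DN1, -0.19 (-0.37 to -0.01) in DN2a and -0.53 (-0.92 to -0.16) in DN2b, where the 3 ΔTE wells lay below the 3 WT wells. The DN2b ratio of 1.45-fold was just under the limit.

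Notch3, a receptor used in early T cells and in vascular mural cells, had the fewest cells with a UMI. It stood at 17.5 CPM in WT DN1, 35.6 in WT DN2a and 34.8 in WT DN2b. The ΔTE values were 13.1, 26.3 and 22.1 CPM. Its ΔTE to WT log2 ratio was -0.42 (-0.87 to 0.01), -0.44 (-0.72 to -0.16) and -0.65 (-1.23 to -0.09) in DN1, DN2a and DN2b. The DN2b ratio passed the limit, at 1.57-fold lower from 95 and 38 UMIs, and the wells of the 2 genotypes overlapped in each start, with single ΔTE DN2b wells at 32.2, 11.3 and 21.2 CPM. Leaving out ΔTE DN2b well 2, or WT DN2b well 2 or 3, ended the call. Without ΔTE DN2b well 1 the log2 ratio was -1.08, and without well 2 it was -0.37. The DN2a ratio was as dependent on wells, at -0.07 without ΔTE DN2a well 1 and -0.85 without well 2.

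Rbpj, the DNA-binding partner of the cut receptor, was at 97.3, 106 and 82 CPM in WT DN1, DN2a and DN2b and at 102, 96.3 and 72.3 CPM in ΔTE. The intervals of its ΔTE to WT log2 ratios all held 0, at 0.07 (-0.10 to 0.24), -0.13 (-0.28 to 0.02) and -0.18 (-0.51 to 0.14). Both DN2b libraries lay below the other 4.

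Maml2, a Mastermind-like coactivator, was the one gene of the 8 that was higher in ΔTE in all 3 starts. Its values were 107, 123 and 91.6 CPM in WT DN1, DN2a and DN2b, and 130, 155 and 118 CPM in ΔTE. The log2 ratio was 0.29 (0.14 to 0.45) in DN1, 0.32 (0.20 to 0.45) in DN2a and 0.36 (0.09 to 0.64) in DN2b, or 1.22 to 1.29-fold. Only the DN1 wells were apart, at 116 to 144 CPM in ΔTE and 98.8 to 111 CPM in WT. Without well 1 of ΔTE DN2a, whose level was 183 CPM, the DN2a log2 ratio was 0.07. With cells limited to 20% mitochondrial UMIs it was 0.15, and the DN2b ratio was then 0.74. When cells of stroma-like clusters were left out the DN2a ratio was 0.62, which passed the limit; these clusters, described below, were rich in Maml2 and made up 8.89% of the WT and 5.13% of the ΔTE DN2a cells.

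Hes1, a transcriptional repressor and the classical Notch target, was at 39.6, 53.3 and 49.1 CPM in WT DN1, DN2a and DN2b and at 37, 52.9 and 59.4 CPM in ΔTE. Its ΔTE to WT log2 ratios were -0.10 (-0.37 to 0.17), -0.01 (-0.22 to 0.19) and 0.28 (-0.11 to 0.66), so no start gave an interval clear of 0. The 2 DN1 libraries were the lowest.

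Dtx1 encodes Deltex1, a ubiquitin ligase induced by Notch that acts back on the receptor. The WT libraries held 47.7 CPM in DN1, 45.7 in DN2a and 85 in DN2b. The ΔTE libraries held 43.8, 27.2 and 61.8 CPM. The ΔTE DN2a library was the lowest of the 6 and WT DN2b the highest. In DN2a the 3 ΔTE wells read 24.4, 27.1 and 32.7 CPM, below the WT wells at 49.9, 45.3 and 42.4 CPM. Dtx1 was 1.68-fold lower in ΔTE there, with a log2 ratio of -0.75 (-1.01 to -0.49), and -0.60 relative to the median gene. With cells limited to 20% mitochondrial UMIs the log2 ratio was -0.47 and no longer passed. The ratio was -0.13 (-0.37 to 0.12) in DN1 and -0.46 (-0.81 to -0.12) in DN2b.

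Nrarp, a small ankyrin repeat protein that is induced by Notch and restrains it, was at 32.6, 27.4 and 23.8 CPM in WT DN1, DN2a and DN2b. In ΔTE it was at 29, 26 and 18.6 CPM, the last from 32 UMIs. The log2 ratios of -0.17 (-0.47 to 0.14), -0.08 (-0.37 to 0.21) and -0.35 (-1.01 to 0.28) all had intervals holding 0. Neighbouring libraries in the order of Nrarp or Hes1 levels never had intervals of their ratio clear of 0. For Notch2, Notch3 and Rbpj 1 of the 5 neighbouring pairs of each did, for Maml2 2 of 5, and for Notch1 and Dtx1 3 of 5 each.

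**Figure D1:**
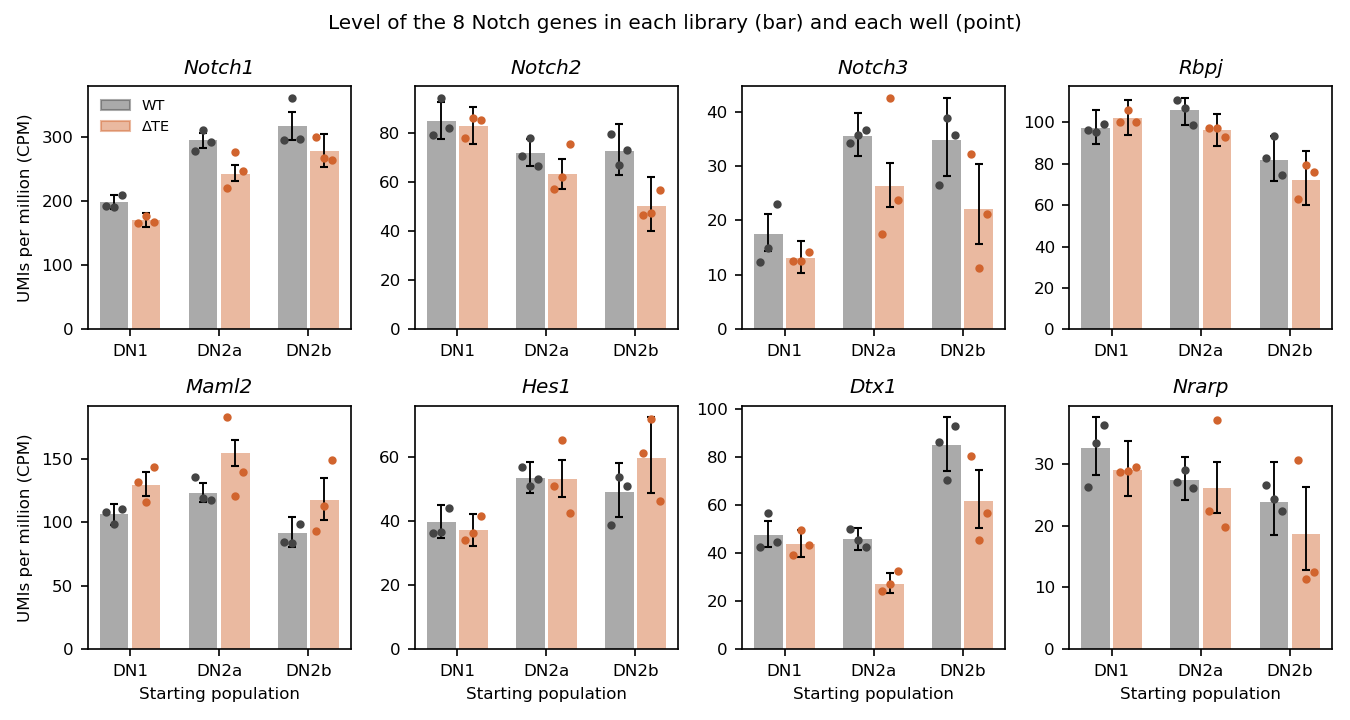
Level of each of the 8 genes in CPM (vertical axis, linear from 0) for each starting population (horizontal axis) in WT (grey) and ΔTE (orange). Bars are the library sums with 95% counting intervals and points are the 3 wells; Notch1 is at 199 CPM in WT DN1 and 317 in WT DN2b, and the 3 ΔTE DN2a wells of Dtx1 lie below the 3 WT wells.

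A gene was called when its ratio was at least 1.5-fold and the 95% interval of the ratio did not hold 1, and the background was every gene with at least 50 UMIs in the 2 libraries. In the DN1 start 0 of the 8 genes passed in ΔTE against WT, where 3.44% of 10155 genes did. In the DN2a start 1 of 8 passed, Dtx1, lower, against 9.64% of 10955 genes. In the DN2b start 1 of 8 passed, Notch3, lower, against 7.49% of 8546 genes. One gene in 8 is near these background shares, so the counts alone do not set the 8 genes apart. The median log2 ratio of the 8 genes was -0.11, -0.16 and -0.27 in DN1, DN2a and DN2b. Wells of the 2 genotypes did not overlap for 3 of the 8 genes in DN1 (Notch1 below, Rbpj and Maml2 above), where 17% of genes had such wells. The same was so for 3 of 8 in DN2a (Notch1, Dtx1 and Rbpj, all below), beside 19.5% of genes, and for 1 of 8 in DN2b (Notch2, below), beside 17.3%. Well levels were not corrected for the median gene, whose log2 ratio was -0.14 in DN2a.

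**Figure D2:**
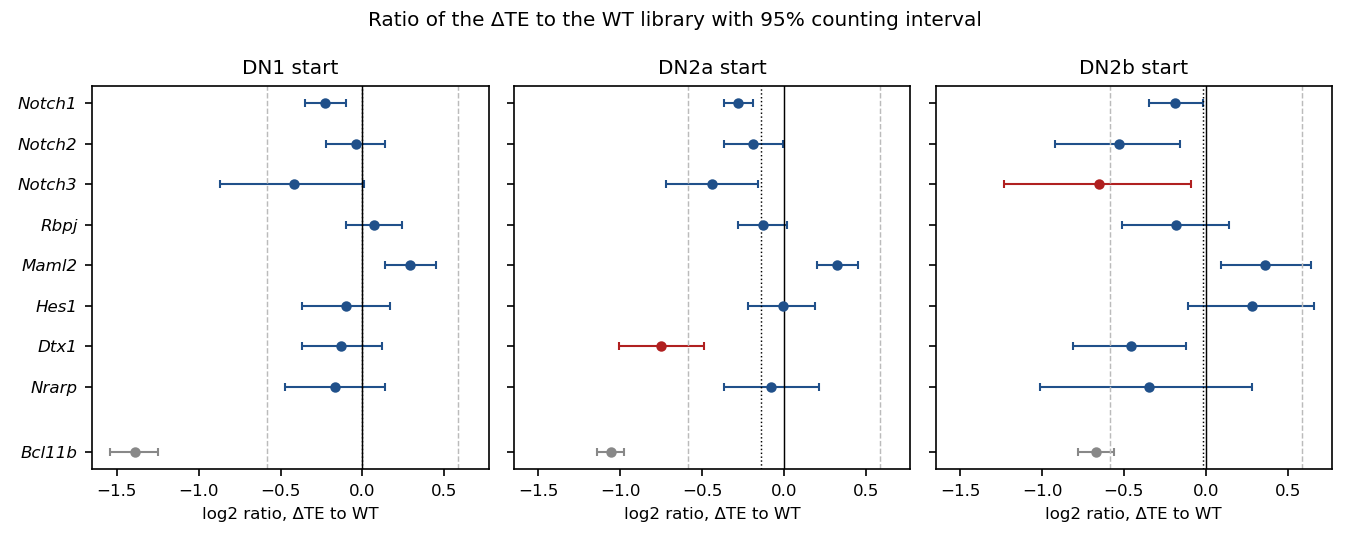
ΔTE over WT, as a log2 ratio (horizontal axis), for the 8 genes and Bcl11b (vertical axis) in each start, with 95% counting intervals. Red points passed the 1.5-fold limit (dashed lines), the dotted line is the median gene, and Bcl11b is grey for reference; Maml2 lies right of 0 in each panel at 0.29 to 0.36, and Notch1 left of 0 at -0.28 to -0.19.

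Over the 3 starts together, Maml2 was higher and Dtx1 lower in ΔTE. An additive model of start and genotype was fitted to the 6 library sums with edgeR's quasi-likelihood test, TMM scaling and Benjamini-Hochberg adjustment over 11836 genes, which left 2 residual degrees of freedom. Maml2 had a log2 ratio of 0.38 (adjusted p = 0.00063) and was higher in 3 of 3 starts, and Dtx1 had one of -0.38 (adjusted p = 0.023) and was lower in 3 of 3 starts. Of the 8 genes 2 passed an adjusted p of 0.05, against 6.3% of all genes. Notch3 (-0.40, adjusted p = 0.062) and Notch1 (-0.17, adjusted p = 0.13) did not pass, nor did Notch2 (adjusted p = 0.48), Hes1 (0.71), Nrarp (0.78) and Rbpj (1). Without the DN2a start neither gene passed, with adjusted p = 0.11 for Maml2 and 0.46 for Dtx1, and with at most 20% mitochondrial UMIs they were at 0.082 and 0.24. Dtx1 also missed it without the DN2b start (0.073). Without stroma-like clusters both passed, at 8.3e-06 for Maml2 and 0.0069 for Dtx1. The libraries of a genotype came from 1 pool of marrow, so these p-values do not measure the spread between mice. The test also draws on the spread of all genes, so a p-value does not rest on that gene's 3 ratios alone. An additive model takes the genotype ratio as the same in each start. For Dtx1 the DN2a log2 ratio less the DN1 one was -0.62 (-0.97 to -0.27), counting error only.

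Set against the sorted stage, the receptors differed. Notch3 was 2.03-fold higher in the WT DN2a than the WT DN1 culture, with a log2 ratio of 1.02 (0.70 to 1.35), and 2.01-fold higher in the same ΔTE comparison, at 1.01 (0.61 to 1.42). Stroma-like cells, described below and rich in Notch3, made up 8.89% of WT DN2a and 2.24% of WT DN1 cells. In progenitor-like and unnamed clusters only, the WT log2 ratio was 0.82. The ΔTE one was 0.60 without ΔTE DN2a well 2 and 1.37 without well 1. Notch1 stayed under the limit, with log2 ratios of 0.57 (0.47 to 0.67) in WT and 0.52 (0.40 to 0.63) in ΔTE, while Notch2 was at -0.24 (-0.41 to -0.07) and -0.39 (-0.59 to -0.20). Among targets, Hes1 gave 0.43 (0.20 to 0.66) in WT and 0.52 (0.27 to 0.77) in ΔTE, and Nrarp -0.25 (-0.52 to 0.03) and -0.16 (-0.48 to 0.16). Dtx1 fell 1.61-fold from the DN1 to the DN2a start in ΔTE, with a log2 ratio of -0.68 (-0.97 to -0.40), and was at -0.06 (-0.28 to 0.16) in WT. The count passing the limit was 1 of 8 in WT, where 17.3% of genes passed, and 2 of 8 in ΔTE, where 12% did. The median gene shifted by 0.15 in this WT comparison, in which the WT DN2a library with few mitochondrial UMIs takes part.

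From the DN2a to the DN2b start, Dtx1 was the 1 gene of the 8 past the limit in each genotype. It rose 1.86-fold in WT, with a log2 ratio of 0.90 (0.66 to 1.13), and 2.27-fold in ΔTE, at 1.18 (0.82 to 1.54), and its DN2b wells lay above its DN2a wells in each genotype. The background was 13.5% of genes in WT and 11.1% in ΔTE. Rbpj gave -0.36 (-0.58 to -0.15) in WT and -0.41 (-0.70 to -0.13) in ΔTE, and Maml2 gave -0.43 (-0.63 to -0.23) and -0.39 (-0.62 to -0.17). The median gene itself shifted by -0.19 in WT and by -0.06 in ΔTE. With at most 20% mitochondrial UMIs Rbpj was at -0.04 in WT, and Maml2 at -0.70 in WT and -0.11 in ΔTE. Rbpj in ΔTE ran from -0.60 to -0.31 over the alternatives tried. Notch1, Notch3 and Hes1 were at -0.25 to 0.20 on the log2 scale. Notch3 was the least steady of them, from -0.24 to 0.44 in WT and from -0.76 to 0.19 in ΔTE over the alternatives tried. These comparisons share the DN2a libraries with those against DN1, so they are not independent.

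To see which cells held these transcripts, cells were clustered with the 8 genes, the other Notch pathway genes and Bcl11b left out, and each cluster was named from marker genes. T-like clusters held 4431 cells, innate lymphoid cell (ILC)-like 4195, myeloid-like 2826 and stroma-like 2947. The progenitor-like and unnamed clusters, 45634 cells together, served as the reference. Of these, a cluster of 3105 cells was progenitor-like and the others were unnamed. Among the unnamed, clusters of 2311 and 1676 cells had 2 T cell markers each, and one of 4128 cells had 1 T cell and 1 ILC marker. The reference is therefore not a set of progenitors alone. The larger T-like cluster, of 4187 cells, rested on 3 T cell markers and none stood among its 10 leading genes. The larger myeloid-like cluster, of 1903 cells, had 5 myeloid and 4 progenitor markers. Another choice of variable genes gave T-like clusters with 5 to 7 markers, and it merged ILC and myeloid markers into 1 cluster, so class values are given with both in view.

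Stroma-like cells differed most. Notch3 was at 119 CPM in them against 17.9 CPM in the reference, 6.65-fold higher, with a log2 ratio of 2.73 (2.50 to 2.97). Maml2 was at 351 against 106 CPM, 3.29-fold higher, at 1.72 (1.60 to 1.84). Notch1 was 2-fold lower (128 against 256 CPM), Dtx1 3.42-fold lower (14.1 against 48.2 CPM) and Nrarp 2.79-fold lower (11.1 against 31 CPM). The direction was the same in 6 of 6 libraries for these 5 genes, and it held under every clustering tried that gave both classes. So 5 of 8 genes passed here, against 56% of all genes. Rbpj (105 against 97.3 CPM), Notch2 (77.7 against 72.3) and Hes1 (47.4 against 46.9) were at like levels, with intervals of their ratios holding 0. The largest stroma-like cluster, of 2413 cells, still had a UMI of the blood cell marker Ptprc in 11.4% of cells; the part of RNA from other cells or of mixed barcodes in its Notch1 and Dtx1 was not tested. Stroma-like cells made up 1.18% to 8.89% of a library, and the summed level of 10 stromal collagen and matrix genes ran from 273 to 2177 CPM, highest in WT DN2a.

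In T-like cells Notch3 was higher (32.2 CPM), with a log2 ratio of 0.85 (0.46 to 1.22) to the reference, and Nrarp lower (17.3 CPM), at -0.84 (-1.36 to -0.36). These were the 2 of 8 that passed, against 11.3% of genes, each with the same direction in 5 of 6 libraries. The class sums pool libraries of unlike make-up, with T-like cells at 2.58% of ΔTE DN1 and 15.7% of WT DN2b cells. The part of this in the class ratios was not tested. Notch1 was at 329 CPM there, with a log2 ratio of 0.36 (0.25 to 0.48) and the same direction in 6 of 6 libraries. Notch1 was at 0.61 and 0.71 and Notch3 at 1.07 and 1.21 on the log2 scale with another seed and with the other variable genes. The finer clustering gave 0.33 and 0.83, with T-like clusters among which 1 held more ILC than T markers in its leading genes and another held 1 ILC and 0 T markers. Nrarp lost its direction under another seed of the topic model, at 0.00. Dtx1 was at 58.4 CPM with an interval of its ratio that held 0, and passed only with the other choice of variable genes, at 0.79.

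ILC-like cells had 1 of 8 genes past the limit, Nrarp, at 18.5 CPM and a log2 ratio of -0.74 (-1.27 to -0.25), against 14.3% of genes, and it turned to 0.08 with another seed. Notch1 was at 224 CPM, with -0.19 (-0.34 to -0.05). That value rested on which clusters were called ILC-like: the log2 ratio was -0.46 under the other seed and -0.99 with the other variable genes. Notch3 was at -0.44 (-1.08 to 0.15), and at -0.85 and -1.36 under the same alternatives. The finer clustering gave -2.16 for Notch1 and -3.39 for Notch3, but it named a cluster of 1309 cells T-like whose 10 leading genes held 4 ILC markers and 1 T marker, so that its ILC-like class, of clusters of 1164 and 128 cells, lacked them.

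Myeloid-like cells had 3 of 8 past the limit, against 16.3% of genes. Notch1 was lower, at 151 CPM and a log2 ratio of -0.76 (-0.96 to -0.57), Notch2 higher, at 113 CPM and 0.64 (0.40 to 0.87), and Hes1 lower, at 31.1 CPM and -0.59 (-1.05 to -0.17). The direction was the same in 6 of 6 libraries for Notch1, 5 of 6 for Notch2 and 3 of 6 for Hes1, and the DN1 libraries that held most myeloid-like cells also had the lowest Hes1 overall. In the DN1 cultures myeloid-like cells made up 12.1% of WT and 9.73% of ΔTE cells, against 0.529% to 1.51% in the DN2 cultures. With another seed none of the 3 passed, at -0.31, 0.56 and -0.13, and without the ΔTE DN1 library the count was 1 of 8.

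**Figure D3:**
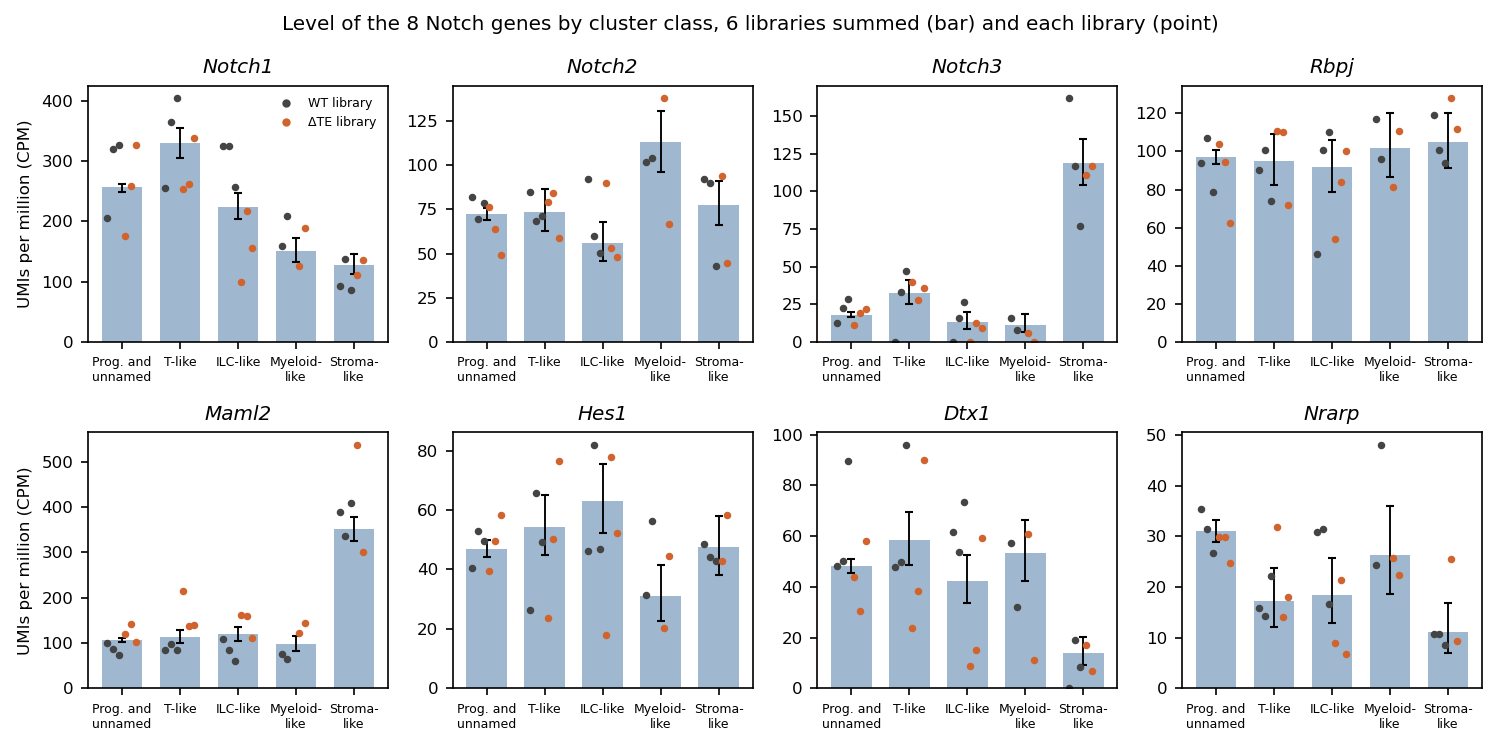
Level of each of the 8 genes in CPM (vertical axis, linear from 0) by cluster class (horizontal axis). Bars sum all 6 libraries with 95% counting intervals and points are single libraries with at least 100 cells of the class, WT grey and ΔTE orange; Notch3 and Maml2 stand out in stroma-like cells at 119 and 351 CPM.

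Within the progenitor-like and unnamed cells alone, Dtx1 and Notch2 were lower in ΔTE past the limit in DN2b, and the DN2b call of Notch3 was lost. The share of all genes past the limit in these cells is not given, so these calls have no background beside them. Notch3 in DN2b was at -0.41 (-1.19 to 0.33) from 54 and 22 UMIs, and Notch2 at -0.67 (-1.16 to -0.19). On the log2 scale Dtx1 stood at -0.13 (-0.41 to 0.14) for DN1, -0.73 (-1.02 to -0.44) for DN2a and -0.62 (-1.07 to -0.18) for DN2b. Maml2 gave 0.24 (0.06 to 0.42), 0.69 (0.53 to 0.86) and 0.49 (0.11 to 0.87). Notch1 was at -0.22 (-0.35 to -0.09) and -0.30 (-0.40 to -0.20) in DN1 and DN2a, and at 0.00 (-0.19 to 0.20) in DN2b. In ILC-like cells Notch1 gave -1.71 (-2.91 to -0.60) in DN1, from 21 WT and 11 ΔTE UMIs. It gave -0.58 (-0.96 to -0.20) in DN2a and -0.73 (-1.23 to -0.24) in DN2b. Maml2 gave 0.91 (0.29 to 1.58) in DN2a and 0.89 (0.09 to 1.76) in DN2b, the latter from 18 and 49 UMIs. Dtx1 gave -1.81 (-3.10 to -0.60) in DN2a, from 17 and 10 UMIs. The intervals of Maml2 in DN1 and of Dtx1 in DN1 and DN2b held 0. The share of all genes past the limit in ILC-like cells is not given either. ILC-like cells made up 1.42% of WT and 2.49% of ΔTE cells in the DN1 start. In DN2a these shares were 4.45% and 12%, and in DN2b 12.4% and 26.8%. Their part in the ratios over all cells was not tested. With stroma-like cells left out, the Notch3 log2 ratio was -0.22, -0.30 and -0.71 in DN1, DN2a and DN2b. Over all cells it was -0.42, -0.44 and -0.65, so the DN2b ratio did not shrink. The part of stroma in these shifts was not tested.

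Thinned to 300 UMIs per cell, which left out 9.81% to 24.2% of the cells of a library, Notch1 had a UMI in 5.45% of WT DN1 cells (5 to 5.92%, Clopper-Pearson), 8.22% of WT DN2a and 8.7% of WT DN2b. The ΔTE shares were 4.8%, 6.7% and 7.66%. Unthinned, the Notch1 shares over both genotypes ran from 8.4% in ΔTE DN1 to 14.2% in WT DN2b. Dtx1 had a UMI in 1.18% (1.01 to 1.37%) of WT and 0.79% (0.627 to 0.983%) of ΔTE DN2a cells, and in 2.79% (2.32 to 3.32%) and 1.8% (1.35 to 2.35%) of DN2b cells. In stroma-like cells, used as the nearest guide to background, the Dtx1 share was 0.414% (0.207 to 0.739%), and in the reference it was 1.42%, at median depths of 578 and 483 UMIs before thinning. Maml2 had a UMI in 3.43% of WT and 4.16% of ΔTE DN2a cells.

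The remaining pathway was read from a list of 51 other genes, of which 36 to 41 had at least 50 UMIs in a pair of libraries. In ΔTE against WT, 1 rose and 0 fell in DN1, 0 rose and 3 fell in DN2a, and 0 rose and 1 fell in DN2b. Of 37, 41 and 36 genes these are shares near or below the 3.44%, 9.64% and 7.49% of all genes called. The median log2 ratio of these genes was 0.01, -0.06 and -0.05. Gata3, a regulator used in both T and ILC development, was the gene that rose, at 88.1 CPM in WT and 142 in ΔTE DN1. Its log2 ratio was 0.69 (0.53 to 0.85) there, 0.51 in DN2a and 0.39 in DN2b. In ILC-like cells Gata3 was 3.23-fold higher than in the reference, at 1.69 (1.58 to 1.79), and in T-like cells 1.26-fold, at 0.33 (0.18 to 0.47). The part of the ILC-like share in its ΔTE to WT ratios was not tested. Cd3e, a chain of the T cell receptor complex, fell in DN2a, from 25.5 to 12.5 CPM, at -1.03 (-1.42 to -0.66), and in DN2b, from 38.1 to 21 CPM, at -0.86 (-1.45 to -0.30). The ligand Jag1 fell in DN2a, from 12.7 to 6.81 CPM, as did the Numb-related Numbl, from 8.41 to 4.75 CPM, while the summed stromal markers in these libraries were 2177 and 1366 CPM; the part of stroma in the Jag1 and Numbl ratios was not tested.

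Il2ra, the CD25 gene and a Notch target, had log2 ratios of 0.14, -0.25 and -0.18 in DN1, DN2a and DN2b, and Tcf7, a regulator of T lineage entry, was at 483 CPM in both DN2a libraries. Myc ran from 59 to 67.6 CPM over all 6 libraries. The proteases that cut the receptor and the sugar transferases that tune it gave no gene past the limit; Adam17 was at -0.30 (-0.46 to -0.13) in DN1. Among coactivators and corepressors none passed either, with Kdm5a at -0.19 (-0.29 to -0.08) in DN2a and -0.30 (-0.50 to -0.09) in DN2b. Notch4 had 0 to 3 UMIs per library, Dll3 and Dll4 0 or 1, and Dll1 from 1 to 12. Hes5, Hey1, Hey2 and Heyl had at most 10 UMIs in any library and were too sparse to compare.

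**Figure D4:**
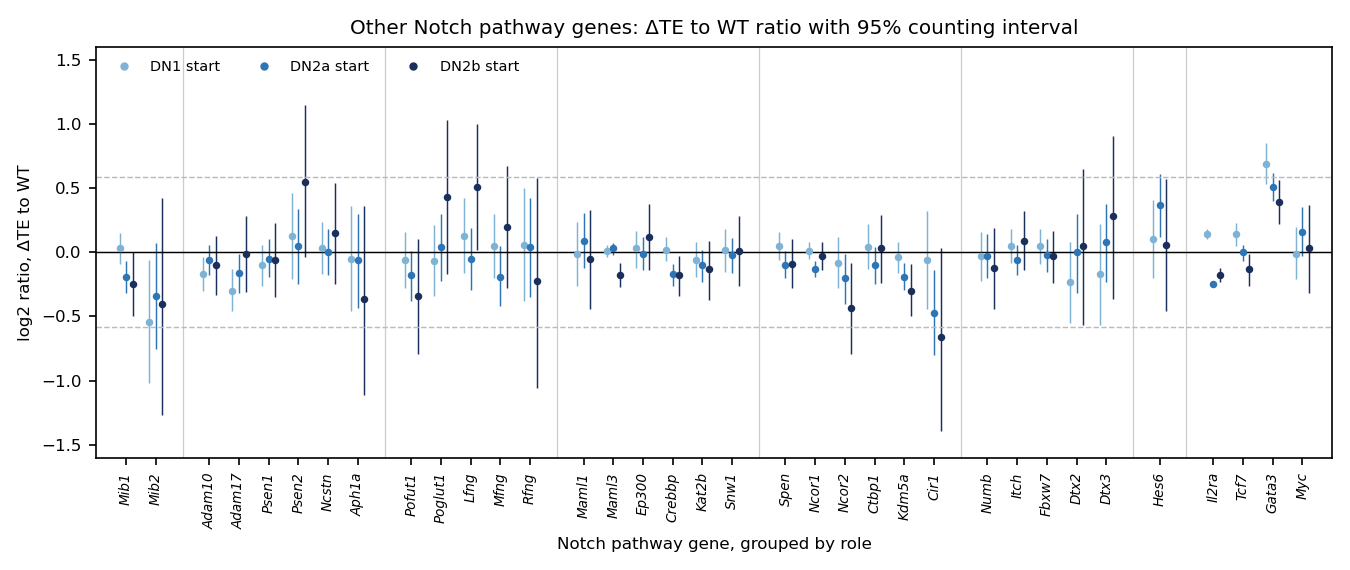
ΔTE over WT, as a log2 ratio (vertical axis), for the 35 of 51 other pathway genes with at least 50 UMIs in each pair of libraries, grouped by role (horizontal axis, grey lines between groups). Points are the 3 starts with 95% counting intervals and dashed lines the 1.5-fold limit; Gata3 lies above 0 in each start, at 0.69, 0.51 and 0.39.

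Likeness over the 18 wells was taken as Pearson's r of log2(CPM + 1) with 5955 genes of at least 1000 UMIs; the wells of a library share a culture and the points fall into 6 groups, so r is a description of these libraries. Among the genes like Notch1 was Cd3g (r = 0.93), with Bcl11b at 0.89. Notch3 was most like Mapre1 (0.92) and Il16 (0.91), Hes1 most like Ubl5 (0.92) and Rmnd5b (0.91), and Dtx1 most like Fyn (0.80) and Rundc3b (0.76). For Notch2 the nearest were Atrnl1 (0.90) and Rad54l (0.89). Nrarp was nearest to Npepl1 and Impa2 (both 0.91), Rbpj to Muc13 and Acsl3 (both 0.89), and Maml2 to Asph (0.86) and Tdrd3 (0.84). The r with Bcl11b was 0.60 for Notch3, 0.50 for Hes1 and 0.54 for Dtx1, and it was -0.43 for Notch2, -0.42 for Nrarp, -0.48 for Rbpj and -0.40 for Maml2.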

How the data were processed

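Gene by cell tables of UMI counts, with gene and cell annotations, were deposited by the authors for the 6 libraries; the deposited counts are raw and were used unchanged. The submitters' processing notes name mm9 and the aligner and counter are not given in the sources used here. Counting was sci-RNA-seq3 with 3 reverse transcription wells per library, 18 in all. Following the study's filters, barcodes under 200 genes, above 2000 UMIs or above 30% mitochondrial UMIs were dropped. No doublet caller was run; the limit of 2000 UMIs, with 1000 as an alternative, stood in for it.

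UMIs were summed per library, well or class and divided by the UMIs on genes seen in at least 15 kept cells. Levels carry exact Poisson intervals and ratios exact conditional (Clopper-Pearson) intervals at 95%. Tested on simulated data, the procedure called 97.5%, 98% and 90.5% of 200 genes changed 2-fold for the DN1, DN2a and DN2b starts, and 0.502%, 0.595% and 1.34% of unchanged genes, over 10155, 10955 and 8546 genes. The simulated counts were Poisson draws without spread between cultures, so these rates cover counting error only.

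Clusters came from an 11-topic latent Dirichlet model on 3000 variable genes by binned dispersion (scanpy 1.11.5, scikit-learn 1.9.0), 40 neighbours and Leiden clustering (leidenalg 0.10.2) at resolution 0.3. A cluster of at least 100 cells was named after the list with most markers 2-fold higher, each with at least 20 UMIs, if at least 3 were; 8 of 10 T markers and 18 of 18 ILC markers were listed in the files. This differs from the study's topic model. After the first clusters and their leading genes had been seen, choosing the variable genes by Pearson residuals was tried as the main setting; as it merged ILC and myeloid markers, binned dispersion was kept and the other became an added alternative.

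The 8 genes, the pathway list and the marker lists were chosen with earlier results of these data known. The text names all 8 and, of the pathway list, those past 1.5-fold in a genotype comparison or with a defining role; Adam17 and Kdm5a were added after their values were seen. An additive edgeR fit of start and genotype on library sums, of genes with at least 50 UMIs over the 6 libraries, was added after the data had been seen; on simulated data of 11836 genes it called 87.5% of 200 genes changed 2-fold and 0.043% of the others. The simulated counts had the same mean in every start, a common spread for all genes and the same genotype shift in each start. These rates therefore need not hold for the data. TMM scaling used edgeR 4.0.16 in R 4.3.3. Of 28048 gene IDs, 27924 (99.6%) were found in GENCODE M21. Promoter sequences are from RefSeq; that of Hes1 is not analysed here. For each of the 8 genes the 2 genes with the highest correlation over wells were taken, and 1 of them is not reported here.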

Additional observations from a re-analysis of the deposited data

Results flagged for a closer look

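The ΔTE to WT ratio of Dtx1 differed between starts: the DN2a log2 ratio less the DN1 one was -0.62 (-0.97 to -0.27). For Notch2 the DN2b ratio less the DN1 one was -0.50 (-0.90 to -0.09). These were the 2 of 24 differences between starts, 3 for each of the 8 genes, whose 95% interval did not hold 0; the intervals are normal approximations that cover counting error only, are not adjusted for the 24, and do not include the spread between cultures. The differences were taken for the 8 genes only. The share of all genes with such an interval is therefore not known, and the count does not set the 8 genes apart. The WT DN2a library with a low mitochondrial share takes part in the Dtx1 difference, and its part was not tested.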

How the results depend on the processing

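The share of all genes past a limit is given for the main settings only. The counts of the 8 genes under other settings, here and in the next paragraph, therefore have no background beside them. They show how the calls move and do not set the 8 genes apart. The paired analysis by start, an additive fit chosen after seeing the data, called 2 of the 8 genes. It called 0 with at most 20% mitochondrial UMIs and 3 without stroma-like clusters (Notch1 too, at -0.22). With 1 start left out it called 0 (without DN2a) to 2 (without DN1). For the comparisons within a start, under TMM scaling, totals without mitochondrial genes and no filter on genes, the counts of the 8 genes past 1.5-fold were as given for each comparison between libraries. TMM moved the DN2a ΔTE to WT log2 ratio of Notch1 to -0.15, of Notch2 to -0.06, of Rbpj to 0.00 and of Maml2 to 0.46. In ΔTE against WT for DN2a, 0 passed with at most 20% mitochondrial UMIs (30753 cells), 2 without stroma-like clusters and 2 in progenitor-like and unnamed clusters only; in DN2b, 2 passed in the latter, Notch2 and Dtx1 and not Notch3. From DN1 to DN2a in WT, 2 passed with at most 1000 UMIs, without stroma-like clusters and in progenitor-like and unnamed clusters only. In ΔTE it was 1 with at least 300 genes, 4 with at most 20% mitochondrial UMIs and 1 in progenitor-like and unnamed clusters only. From DN2a to DN2b, 2 passed in WT with at most 20% mitochondrial UMIs and 2 in ΔTE in progenitor-like and unnamed clusters only.

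With 1 well left out the counts in ΔTE against WT ran from 0 to 1 in DN1, 1 to 2 in DN2a and 0 to 3 in DN2b. From DN1 to DN2a they ran from 1 to 2 in WT, and from DN2a to DN2b from 1 to 3 in ΔTE. With 1 library left out they ran from 1 to 4 in myeloid-like cells (1 without ΔTE DN1) and from 0 to 1 in ILC-like cells (0 without ΔTE DN2b). Resolution 0.6, which named a cluster led by ILC markers T-like, gave 1 gene past the limit in T-like and 3 in ILC-like cells, another seed gave 0 in myeloid-like cells, and variable genes by Pearson residuals, chosen after seeing the data, gave 4 in T-like, 2 in ILC-like and 1 in myeloid-like cells. Nrarp lost its direction with another seed, at 0.00 in T-like and 0.08 in ILC-like cells. Clustering on principal components gave 1 stroma-like cluster and 1 that held the rest, so no class ratio could be had from it. The causes were not tested. Without thinning, or thinned to 200 UMIs, which left out 0 cells, 91 of 96 shares of cells with a UMI moved beyond their interval. Such a share rises with the UMIs kept per cell, so shifts of this kind were built into the settings. The count does not show whether differences between genotypes hold. Depth limits Notch3 and Nrarp most, with 38 and 32 UMIs in ΔTE DN2b.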
